A study of Homo sapiens with 6 samples.

Results

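The aminoacyl-tRNA synthetases are the enzymes that join each amino acid to its transfer RNA, and 35 of the 33539 genes in the deposited table were taken as members by name. Of these, 19 encode cytosolic enzymes or enzymes with both a cytosolic and a mitochondrial form (names ending in 1, with FARSA and FARSB), and 16 encode mitochondrial enzymes (names ending in 2). Their messenger RNAs were measured in 8505C, a line established from an anaplastic (undifferentiated) thyroid carcinoma, by sequencing of poly(A) RNA. One group received an siRNA against POLR1F, a subunit of RNA polymerase I (siPOLR1F, 3 libraries), and the other a negative control siRNA (NC, 3 libraries), both for 24 h. The study asked how POLR1F regulates other genes.

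Synthetases activate an amino acid with ATP and transfer it to the matching tRNA, which the elongation factors then carry to the ribosome. They fall into class I and class II, which differ in the fold of the catalytic domain. In animal cells several cytosolic synthetases sit together in the multi-tRNA synthetase complex, held by the scaffold proteins AIMP1, AIMP2 and EEF1E1. A second set of enzymes, encoded in the nucleus and imported, charges the tRNAs made by the mitochondrial genome, and for glycine and lysine 1 gene supplies both compartments. When uncharged tRNA accumulates, the kinase GCN2 (gene EIF2AK4) phosphorylates the initiation factor eIF2α, and the transcription factor ATF4 then induces amino acid transporters, biosynthetic enzymes and many cytosolic synthetases.

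Libraries held 60576788 to 63038378 counts, and all carried the same batch label. POLR1F had 575, 395 and 413 counts in the siPOLR1F libraries, against 2446, 2246 and 2095 in the NC libraries (log2 fold change -2.30, SE 0.15; edgeR adjusted p = 9.76e-05). Of 13564 genes tested, 17.2% were called at an adjusted p below 0.05, 10.3% as higher and 6.94% as lower in siPOLR1F. Whether a group's libraries are separate cultures is not stated in the labels, so p-values measure the spread between libraries, which may be technical. The labelled cell type had little of the thyroid program, with 6 of 8 thyroid markers below a mean of 0.5 FPKM (counts scaled by transcript length and library size), TG and TSHR among them. The summed FPKM of those 8 markers was 26.7 to 29.9 in siPOLR1F and 42.9 to 47.7 in NC, most of it NKX2-1. Sums were 227 to 257 in siPOLR1F and 267 to 299 in NC for 5 epithelial markers, 10.0 to 15.8 and 7.59 to 12.5 for 3 leukocyte markers, 1.65 to 2.01 and 1.86 to 2.71 for 6 fibroblast markers, and 2.36 to 4.79 and 5.62 to 6.75 for 3 endothelial markers. The endothelial sum was mostly CDH5, at 2.72 ± 0.67 FPKM in siPOLR1F and 5.65 ± 0.22 FPKM in NC (SD, n = 3 each; edgeR adjusted p = 0.00308), and the leukocyte sum mostly CD68, at 12.9 ± 2.9 FPKM in siPOLR1F and 9.32 ± 2.68 FPKM in NC (edgeR adjusted p = 0.162). KRT8 was called lower (log2 fold change -0.25) and KRT18 did not pass. PTPRC and CD79A, PECAM1 and VWF, 4 of the 6 fibroblast markers and CDH1 were each below a mean of 0.5 FPKM, and the part of these markers in the results was not tested.

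All 35 synthetase genes were expressed and passed the filter on low values, with 403 to 31121 counts per gene and library. Among the cytosolic enzymes, FARSA, the catalytic subunit of phenylalanyl-tRNA synthetase, had the highest mean level over the 6 libraries (95.3 FPKM), followed by the threonyl enzyme TARS1 (87.6 FPKM) and the lysyl enzyme KARS1 (62.9 FPKM). HARS1 for histidine (7.41 FPKM), GARS1 for glycine (12.6 FPKM) and LARS1 for leucine (15.5 FPKM) were the least abundant. Mitochondrial enzymes mostly lay lower, although YARS2, HARS2, TARS2 and SARS2 were above the cytosolic HARS1. Among them IARS2 for isoleucine stood apart at 38.0 FPKM and ranked 8 among the 35. After it came YARS2 for tyrosine (10.4 FPKM) and HARS2 for histidine (9.99 FPKM), and the lowest were RARS2 for arginine (3.04 FPKM), FARS2 for phenylalanine (2.11 FPKM) and NARS2 for asparagine (1.67 FPKM). FARSA and TARS1 overlapped in the NC libraries and not in the siPOLR1F libraries, and YARS2 and HARS2 overlapped, as did LARS2, RARS2 and PARS2. The order depends on the lengths by which the authors divided: 1 unit of FPKM stood for 149 counts in YARS2 and 1560 counts in IARS1, with a median of 369.

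**Figure D1:**
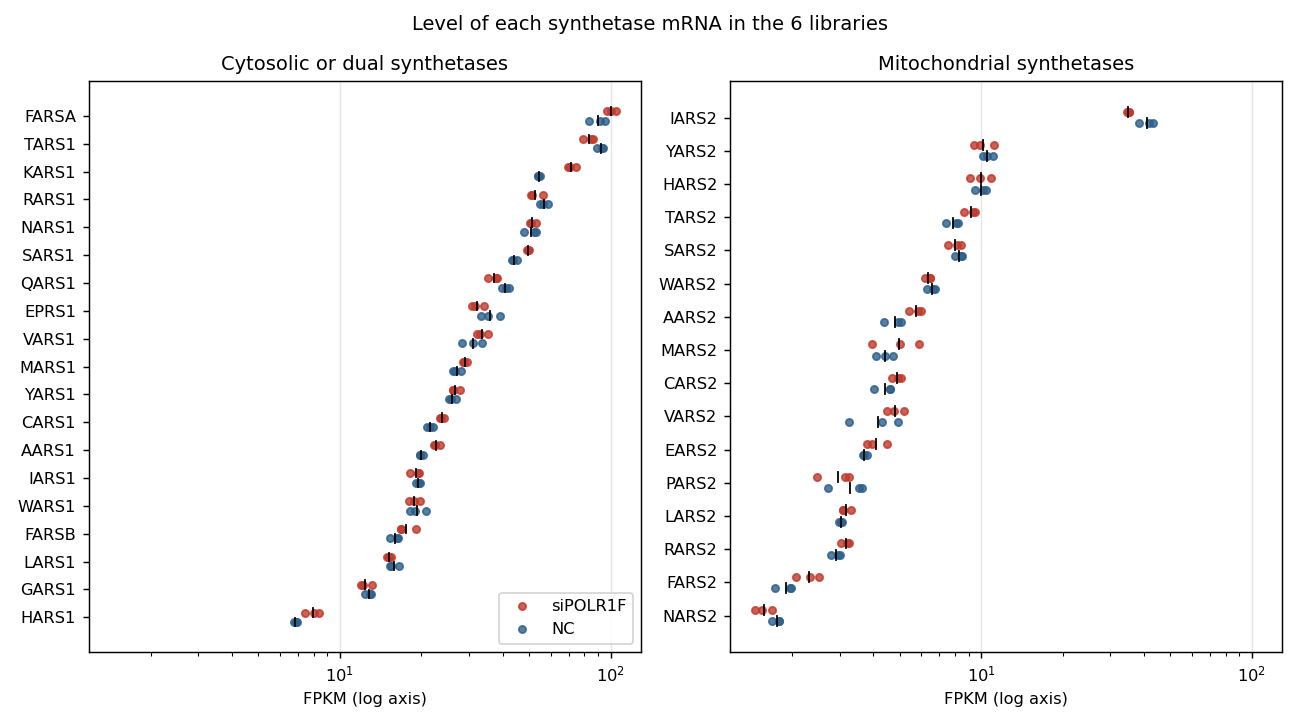
FPKM (log axis) of the 19 cytosolic or dual synthetases (left panel) and the 16 mitochondrial ones (right panel), with 1 point per library, siPOLR1F above NC for each gene, and a black bar at each group mean. The cytosolic genes span 7.41 to 95.3 mean FPKM; among the mitochondrial genes IARS2 stands apart at 38.0.

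After POLR1F silencing most synthetase messages did not pass the test, and the changes that did were small. Of the 35 genes, 4 rose (KARS1, HARS1, AARS1 and SARS1), 1 fell (IARS2) and 30 did not pass the edgeR test, so 14.3% were called, beside 17.2% of all genes tested. The 4 that rose were in the cytosolic or dual group, 4 of 19 beside a background of 10.3% called higher. The 1 that fell was in the mitochondrial group, 1 of 16 beside a background of 6.94% called lower. Among the 4, KARS1 encodes both a cytosolic and a mitochondrial form, and counts per gene do not tell which form rose. No gene of the mitochondrial group rose and none of the cytosolic or dual group fell at this threshold. At an unadjusted p below 0.05 there were 8 genes of the cytosolic or dual group and 4 of the mitochondrial group, in either direction. DESeq2 called 5 genes of the cytosolic or dual group and 2 of the mitochondrial group higher. The 4 cytosolic genes became 2 without siPOLR1F replicate 1 and 1 without siPOLR1F replicate 2, siPOLR1F replicate 3 or NC replicate 3. Whether the compartments differed in their response was not tested. The median log2 fold change was 0.05 for the cytosolic genes (from -0.15 to 0.40) and 0.09 for the mitochondrial genes (from -0.23 to 0.29), beside -0.01 for all genes tested. Of the 35, 20 (57.1%) had a positive log2 fold change, beside 47.5% of all genes tested. In bulk RNA, fewer cells with a message and less of it per cell cannot be told apart.

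**Figure D2:**
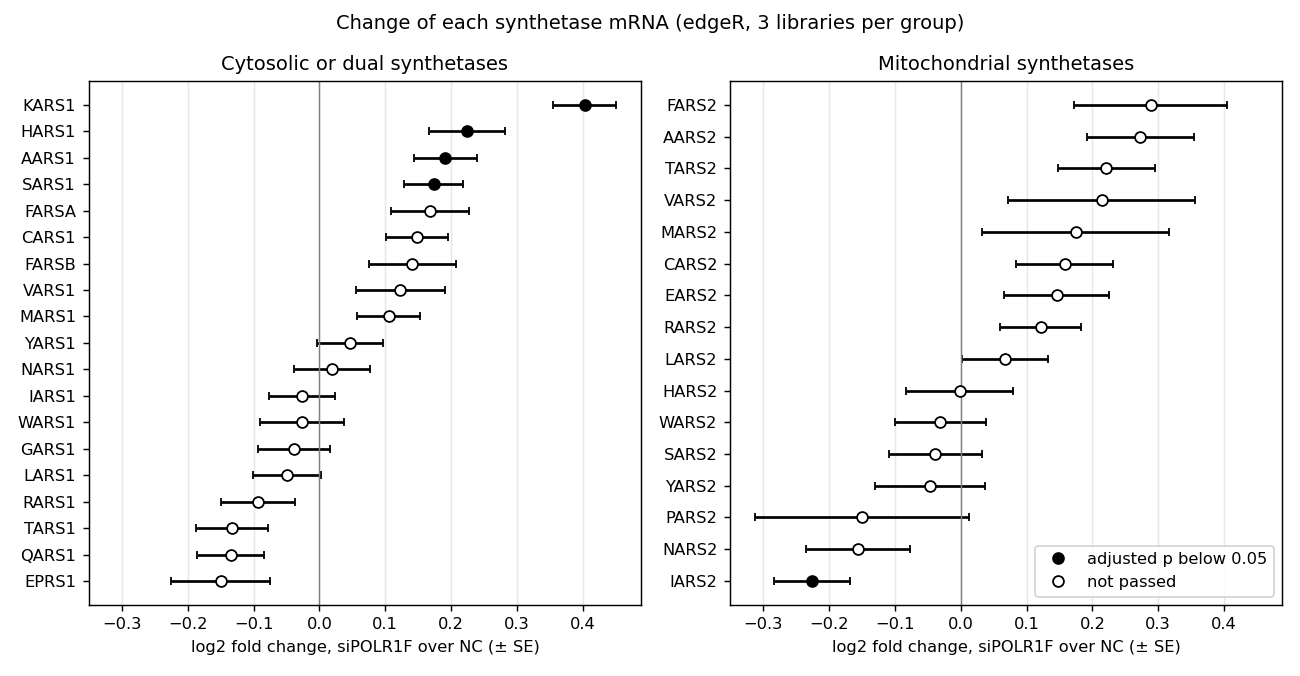
Log2 fold change, siPOLR1F over NC, with its SE computed from the edgeR F statistic, for each cytosolic or dual synthetase (left panel) and each mitochondrial one (right panel), ordered by size. Filled points passed an adjusted p below 0.05: KARS1 (0.40), HARS1 (0.22), AARS1 (0.19) and SARS1 (0.17) on the positive side and IARS2 (-0.23) on the negative side.

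KARS1, which encodes both the cytosolic and the mitochondrial lysyl-tRNA synthetase by alternative splicing, changed most (ENSG00000065427, GRCh38 chromosome 16, 75627474 to 75647665, minus strand). Its level was 70.8, 69.4 and 74.2 FPKM in the siPOLR1F libraries, against 54.9, 54.0 and 54.0 FPKM in the NC libraries. Every siPOLR1F library lay well above every NC library, and the gap between the groups was wider than the spread within either. The edgeR log2 fold change was 0.40 ± 0.05 (SE), with an adjusted p of 0.00126, a level 32.2% higher. KARS1 was the 1 member with an absolute log2 fold change above 0.3. It passed in all 14 alternative analyses, with adjusted p-values from 1.28e-10 to 0.00947.

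HARS1, the histidyl-tRNA synthetase (ENSG00000170445, chromosome 5, 140673035 to 140691537, minus strand), had 7.45, 8.05 and 8.39 FPKM in siPOLR1F, against 6.86, 6.95 and 6.75 FPKM in NC. The groups did not overlap, and siPOLR1F replicate 1 lay closest to the NC values. The edgeR log2 fold change was 0.22 ± 0.06 (SE), with an adjusted p of 0.032. The call ended without siPOLR1F replicate 2 (adjusted p = 0.0947), siPOLR1F replicate 3 (0.117) or NC replicate 3 (0.0906), and with limma on FPKM, within a range of 0.00599 to 0.117 over the alternatives.

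AARS1, the alanyl-tRNA synthetase (ENSG00000090861, chromosome 16, 70251983 to 70289707, minus strand), had 23.4, 22.2 and 22.5 FPKM in siPOLR1F, against 20.3, 19.8 and 19.8 FPKM in NC. Each siPOLR1F library was above each NC library, by a small margin that was nonetheless wider than the range within NC. The edgeR log2 fold change was 0.19 ± 0.05 (SE), with an adjusted p of 0.0295. SARS1, the seryl-tRNA synthetase (ENSG00000031698, chromosome 1, 109213918 to 109238182, plus strand), had 49.1, 49.3 and 49.8 FPKM in siPOLR1F, against 43.4, 45.0 and 43.7 FPKM in NC. Here too the groups were separate, and the siPOLR1F libraries were nearly equal to each other. The edgeR log2 fold change was 0.17 ± 0.05 (SE), with an adjusted p of 0.0327. Neither call held without siPOLR1F replicate 1, 2 or 3 (adjusted p = 0.102, 0.0631 and 0.0801 for AARS1; 0.0924, 0.0919 and 0.107 for SARS1). Without NC replicate 3 the values were 0.0892 for AARS1 and 0.0999 for SARS1, without NC replicate 2 AARS1 had 0.0640, and without NC replicate 1 SARS1 had 0.0630. Over the alternatives the range was 0.00705 to 0.102 for AARS1 and 0.0102 to 0.107 for SARS1.

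IARS2, the mitochondrial isoleucyl-tRNA synthetase (ENSG00000067704, chromosome 1, 220094132 to 220148041, plus strand), had 34.5, 35.1 and 35.2 FPKM in siPOLR1F, against 43.1, 38.4 and 41.7 FPKM in NC. All siPOLR1F libraries were below all NC libraries, of which replicate 2 was the nearest. The edgeR log2 fold change was -0.23 ± 0.06 (SE), with an adjusted p of 0.0304, a level 14.5% lower. The call ended without siPOLR1F replicate 1 (adjusted p = 0.0892), 2 (0.0893) or 3 (0.0879) and without NC replicate 1 (0.0560) or 3 (0.0799), within a range of 0.00566 to 0.101 over the alternatives. The 13 messages of the mitochondrial genome, which the imported synthetases serve, took 4.55%, 4.14% and 4.08% of the counts in siPOLR1F, against 4.87%, 4.67% and 4.74% in NC.

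AARS2, CARS1 and TARS2 had the next smallest adjusted p-values and did not pass. AARS2, the mitochondrial alanyl enzyme, had 5.87, 5.43 and 6.01 FPKM in siPOLR1F, against 4.38, 5.08 and 4.95 FPKM in NC, with an edgeR adjusted p of 0.0518 (log2 fold change 0.27, SE 0.08). CARS1, the cytosolic cysteinyl enzyme, had 24.3, 23.6 and 23.4 FPKM in siPOLR1F, against 21.5, 21.1 and 22.1 FPKM in NC (log2 fold change 0.15, SE 0.05; edgeR adjusted p = 0.0637). In both genes the groups did not overlap. TARS2, the mitochondrial threonyl enzyme, had 9.37, 8.65 and 9.48 FPKM in siPOLR1F, against 7.42, 8.24 and 8.05 FPKM in NC (log2 fold change 0.22, SE 0.07; edgeR adjusted p = 0.0725), again without overlap. DESeq2 placed these 3 genes below the threshold (adjusted p = 0.0227 for AARS2, 0.0398 for CARS1 and 0.0429 for TARS2).

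**Figure D3:**
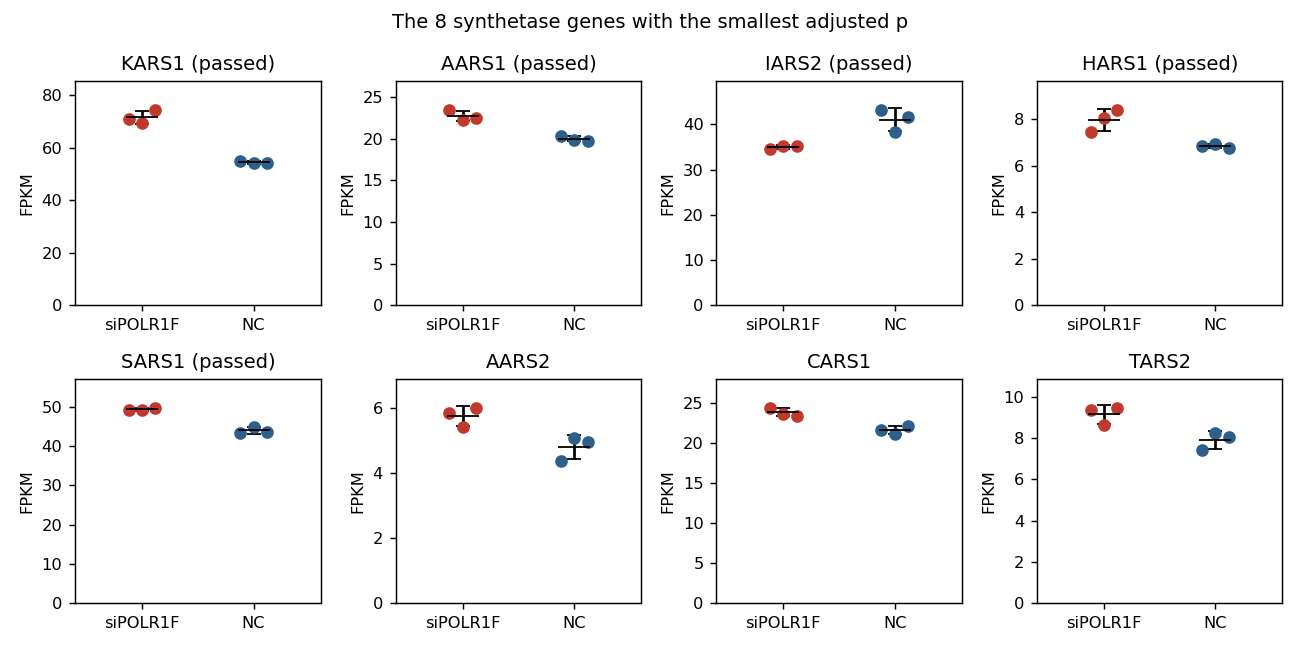
FPKM in each library of the 8 synthetase genes with the smallest adjusted p, siPOLR1F at the left and NC at the right of each panel, with the group mean and its SD (n = 3). The groups are separate in all 8 panels; IARS2 alone lies lower in siPOLR1F.

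The other 27 members had log2 fold changes between -0.16 and 0.29 and none of them passed. In FPKM, 15 of the 35 genes (42.9%) were higher in every siPOLR1F library than in every NC library, beside 18.9% of all genes tested, and 4 (11.4%) were lower in every one, beside 19.0%. Besides those already described, the higher ones were FARSA, FARSB and MARS1 in the cytosol and CARS2, EARS2, FARS2, LARS2 and RARS2 in mitochondria, and the lower ones were QARS1, TARS1 and NARS2. FARSA, for example, had 97.2, 99.9 and 104.8 FPKM in siPOLR1F, against 83.5, 95.4 and 91.2 FPKM in NC, with the lowest siPOLR1F library just above the highest NC library (log2 fold change 0.17; edgeR adjusted p = 0.0863). TARS1 had 86.3, 78.8 and 84.8 FPKM in siPOLR1F, against 93.1, 93.5 and 88.8 FPKM in NC, so that siPOLR1F replicate 1 lay near the lowest NC library (log2 fold change -0.13; edgeR adjusted p = 0.128). In the remaining 16 genes the groups overlapped, HARS2 (log2 fold change -0.001), NARS1 (0.02) and IARS1 (-0.03) among them.

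Summed over the 19 cytosolic genes, the level was 704.8 ± 18.4 FPKM in siPOLR1F and 680.2 ± 14.1 FPKM in NC (SD, n = 3 each), and the ranges of 690.6 to 725.5 in siPOLR1F and 670.3 to 696.3 in NC overlapped. Summed over the 16 mitochondrial genes it was 116.3 ± 4.05 FPKM in siPOLR1F and 118.8 ± 1.95 FPKM in NC (SD, n = 3 each), also with overlap (112.2 to 120.3 in siPOLR1F and 116.9 to 120.8 in NC).

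Of the 7 synthetases of the multi-tRNA synthetase complex KARS1 rose and the other 6 did not pass, with log2 fold changes of -0.15 for EPRS1 (glutamate and proline), -0.13 for QARS1 (glutamine), -0.09 for RARS1 (arginine), -0.05 for LARS1 (leucine), -0.03 for IARS1 (isoleucine) and 0.11 for MARS1 (methionine). KARS1 was set against its partners after its own call was seen. Taken library by library, the FPKM ratio of KARS1 to EPRS1 was 2.08, 2.25 and 2.35 in siPOLR1F, against 1.40, 1.53 and 1.63 in NC. The ratio of KARS1 to RARS1 was 1.36 ± 0.04 in siPOLR1F and 0.961 ± 0.040 in NC (SD, n = 3 each), and that of KARS1 to MARS1, the partner nearest to it in change, was 2.47 ± 0.06 in siPOLR1F and 2.01 ± 0.09 in NC. Against each of the 6 partners, KARS1 had a higher ratio in every siPOLR1F library than in every NC library, which gives an exact two-sided permutation p of 0.1, the smallest that 3 against 3 libraries allow. Adjusted over all 25 ratios compared here the p was 0.192. Since no p below 0.1 is possible, no ratio could have passed the threshold of 0.05. The test therefore cannot decide whether these ratios differ. The scaffold genes did not pass either. AIMP2 had 19.6, 19.0 and 21.9 FPKM in siPOLR1F, against 14.7, 17.8 and 17.4 FPKM in NC (log2 fold change 0.29; edgeR adjusted p = 0.0663). AIMP1 had a log2 fold change of 0.20 and EEF1E1 of -0.04, and in both the groups overlapped.

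Phenylalanyl-tRNA synthetase is built from the subunits FARSA and FARSB, and the FPKM ratio of FARSA to FARSB was 5.74 ± 0.23 in siPOLR1F and 5.63 ± 0.45 in NC (SD, n = 3 each; exact two-sided permutation p = 0.8), a difference smaller than either SD. GARS1, which like KARS1 serves both compartments, had 11.95, 12.1 and 13.1 FPKM in siPOLR1F, against 12.9, 13.1 and 12.4 FPKM in NC. Its groups overlapped, and the edgeR adjusted p was 0.664 (log2 fold change -0.04).

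By structural class, the 4 genes that rose were all class II enzymes, 4 of 16, and the 1 that fell was class I, 1 of 19, beside 10.3% and 6.94% of all genes called in these directions. The median log2 fold change was 0.15 for class II and 0.05 for class I. These groups of genes share members with the compartments above, and their difference was not tested. EPRS1, which charges both glutamate and proline, was counted in class I only (log2 fold change -0.15). The mitochondrial enzymes for these amino acids, EARS2 and PARS2, were counted in class I and class II respectively.

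For 13 amino acids 1 cytosolic and 1 mitochondrial gene could be paired. Per length, the cytosolic message was the more abundant in 11 of the 13 pairs, with a median FPKM ratio of 4.86 in siPOLR1F and 5.21 in NC. The exceptions were histidine and isoleucine. HARS1 over HARS2 was 0.819, 0.739 and 0.848 in siPOLR1F, against 0.677, 0.729 and 0.648 in NC, so the groups did not overlap. IARS1 over IARS2 was 0.562, 0.515 and 0.558 in siPOLR1F, against 0.457, 0.513 and 0.458 in NC, with siPOLR1F replicate 2 and NC replicate 2 almost equal. Both exceptions rest on the lengths used: 1 unit of FPKM stood for 983 counts in HARS1 and 259 in HARS2, and for 1560 in IARS1 and 287 in IARS2. In mean counts, which also grow with length, HARS1 (7288) was above HARS2 (2587) and IARS1 (30000) above IARS2 (10910). The threonine pair changed most among the 13. TARS1 over TARS2 was 9.21, 9.10 and 8.95 in siPOLR1F, against 12.5, 11.3 and 11.03 in NC, a mean of 9.09 ± 0.13 in siPOLR1F and 11.6 ± 0.8 in NC (SD, n = 3 each). Every siPOLR1F library was lower than every NC library, although neither TARS1 (log2 fold change -0.13) nor TARS2 (0.22) passed alone. In all, 6 pairs were separate between the groups, 4 with a higher ratio in siPOLR1F (histidine, isoleucine, serine and tyrosine) and 2 with a lower one (threonine and arginine), each with an exact permutation p of 0.1. Separation was common among single genes, with 18.9% of all genes tested higher and 19.0% lower in every siPOLR1F library. For ratios of other gene pairs no such share was taken. The log2 fold changes of the partners had the same sign in 6 of the 13 pairs.

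**Figure D4:**
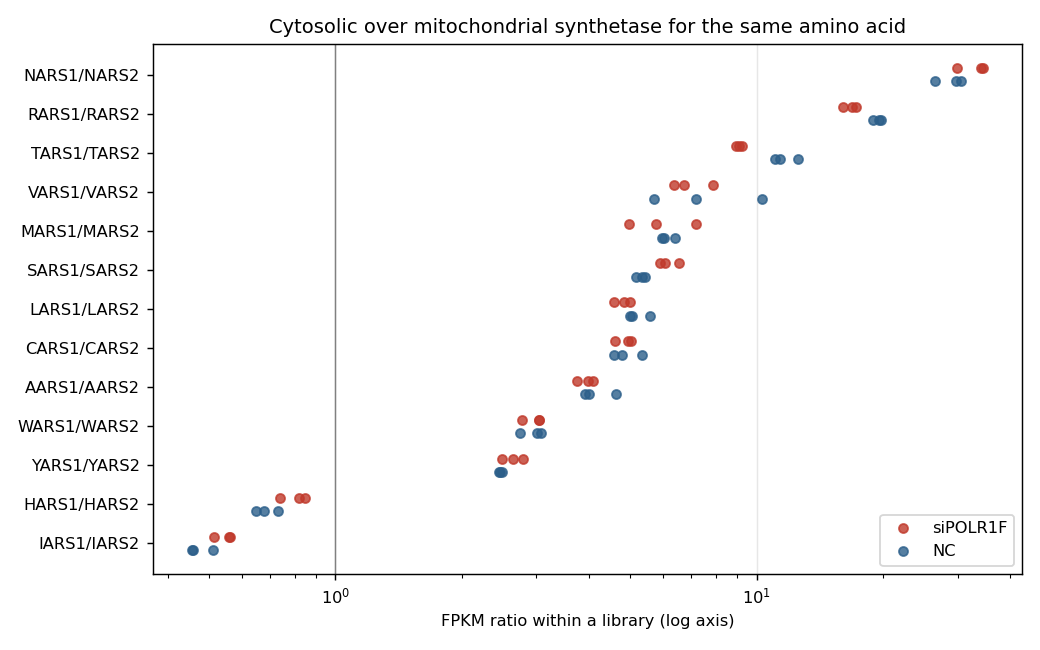
FPKM ratio of the cytosolic to the mitochondrial synthetase for the same amino acid in each library (log axis), siPOLR1F above NC in each of 13 pairs, with a line at a ratio of 1. The histidine and isoleucine pairs lie below 1, and the threonine pair shows 9.09 in siPOLR1F beside 11.6 in NC.

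Many cytosolic synthetase genes carry a C/EBP-ATF response element, the composite site through which ATF4 acts. Promoter windows of 250 bases before to 50 after the start were taken from RefSeq (GRCh38.p14) and matched 30 of the 35 members. AARS2, LARS1, VARS1, VARS2 and YARS1 had no entry. The core TGATGNAA, searched on both strands, occurred in 7 of 16 cytosolic genes and in 1 of 14 mitochondrial genes (YARS2), against 4.46% of 27305 genes with a window. The 7 cytosolic matches are shown because cytosolic genes with and without the core are compared below. Some genes known as ATF4-induced, SARS1 among them, had no match in the window. Each match is given as 30 bases with the core in capitals, on the strand on which it reads TGATGNAA.
AARS1 (chr16:70289675-70289704, plus strand): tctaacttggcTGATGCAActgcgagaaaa
CARS1 (chr11:3057407-3057436, plus strand): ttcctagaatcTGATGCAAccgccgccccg
GARS1 (chr7:30594834-30594863, minus strand): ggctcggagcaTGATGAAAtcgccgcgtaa
IARS1 (chr9:92293692-92293721, plus strand): gcgcacggaggTGATGCAAcgcgctgaaaa
MARS1 (chr12:57488053-57488082, minus strand): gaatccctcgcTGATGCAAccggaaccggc
NARS1 (chr18:57621804-57621833, minus strand): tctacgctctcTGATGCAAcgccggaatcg
TARS1 (chr5:33440956-33440985, minus strand): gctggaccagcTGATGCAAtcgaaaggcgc
In 6 of the 7 the core read TGATGCAA, and GARS1 had TGATGAAA. The bases on either side of it differed from gene to gene.

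Genes with and without this core were among those that rose. Of the 7, AARS1 rose and 6 did not pass, with a median log2 fold change of 0.02 and a range from -0.13 (TARS1) to 0.19 (AARS1). Of the 9 cytosolic genes whose window lacked it, 3 rose (KARS1, HARS1 and SARS1), with a median of 0.14. Grouped by earlier knowledge instead of sequence, 2 of 12 cytosolic synthetases known as ATF4-induced rose (AARS1 and SARS1; median 0.00), and 2 of the other 7 rose (KARS1 and HARS1; median 0.14). Of all genes tested, 10.3% were called higher. Differences between these small groups of synthetases were not tested. The E-box CACGTG, the site of MYC and its relatives, occurred in 4 of 30 members (IARS1, MARS2, CARS2 and EARS2), against 8.77% of all genes with a window. None of these 4 passed the test, beside 17.2% of all genes tested that did. A match describes letters in a window and does not show that a factor binds there.

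KARS1 starts back to back with TERF2IP, which encodes the telomere protein RAP1, and the transcription starts lie 108 bases apart on opposite strands. The bases between the starts are shown because the genes on both sides of them were called higher, and they are written in the direction of KARS1, from the base beside the TERF2IP start to the base beside the KARS1 start (chr16:75647666-75647772, minus strand).
TERF2IP to KARS1: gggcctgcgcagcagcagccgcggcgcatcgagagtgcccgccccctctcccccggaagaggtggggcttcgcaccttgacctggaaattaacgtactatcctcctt
This stretch holds neither motif in the searched form. TERF2IP had 13.8, 13.2 and 15.1 FPKM in siPOLR1F, against 11.1, 11.8 and 12.6 FPKM in NC, with separate groups and an edgeR adjusted p of 0.0442 (log2 fold change 0.26, SE 0.07). Its call ended without any 1 of the 6 libraries (adjusted p from 0.0517 without NC replicate 3 to 0.154 without siPOLR1F replicate 3). The ratio of KARS1 to TERF2IP was 5.09 ± 0.17 in siPOLR1F and 4.61 ± 0.32 in NC (SD, n = 3 each), and the groups overlapped.

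In all, 12 members overlap another tested gene, and reads there may have been divided between neighbours, since the strand setting of the counting is not given in the sources used here. HARS1 and HARS2 overlap by 108 bases head to head in the deposited table, yet HARS1 rose and HARS2 had a log2 fold change of -0.001. AARS1 overlaps DDX19B by 45 bases, and DDX19B had a log2 fold change of 0.00. The end of MARS1 overlaps 982 bases of DDIT3, an ATF4 target that encodes CHOP and rose (log2 fold change 1.10; edgeR adjusted p = 0.0320 with all libraries, 0.0535 to 0.104 without any 1 library other than NC replicate 1). YARS1 overlaps 603 bases of S100PBP, which fell by 0.63 on the log2 scale (edgeR adjusted p = 0.00286), while YARS1 itself had 0.05. WARS2 shares 258 bases with the antisense gene WARS2-AS1 (log2 fold change -0.42), and VARS2 shares 12255 bases with an unnamed locus on the same strand, so the values of these members are uncertain.

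Of 34 ATF4 target genes outside the synthetases, 9 rose, 2 fell and 23 did not pass, so 32.4% were called, beside 17.2% of all genes tested (10.3% higher and 6.94% lower), with log2 fold changes from -0.36 to 1.10 (median 0.09). The 4 with the smallest p-values act in amino acid transport and in feedback on the pathway. PPP1R15A, which directs the eIF2α phosphatase, changed by 0.91 on the log2 scale (SE 0.11) and TRIB3, a pseudokinase that restrains ATF4, by 0.71 (SE 0.08). SLC3A2, the heavy chain of the large neutral amino acid transporters, changed by 0.68 (SE 0.10), and SLC7A1, the carrier of lysine, arginine and ornithine, by 0.58 (SE 0.07). These 4 had edgeR adjusted p-values from 0.000775 to 0.00308 and passed in all 14 alternatives. The 2 that fell were STC2 (log2 fold change -0.25; edgeR adjusted p = 0.0112) and VLDLR (-0.24; edgeR adjusted p = 0.0465). The calls of STC2 and VLDLR were not followed through the alternatives. ATF4 itself had 157.3, 153.5 and 149.6 FPKM in siPOLR1F, against 148.7, 138.3 and 144.0 FPKM in NC, and did not pass (log2 fold change 0.10; edgeR adjusted p = 0.191). ASNS, the asparagine synthetase that is a standard reporter of amino acid shortage, did not pass (log2 fold change -0.23; edgeR adjusted p = 0.101). Its level was 15.1, 15.8 and 16.7 FPKM in siPOLR1F, against 20.9, 16.8 and 18.4 FPKM in NC, so every siPOLR1F library was lower. In the eIF2α kinase arm 1 of 13 genes (7.69%) was called, EIF2B2, a subunit of the exchange factor for eIF2 (0.33, SE 0.06; edgeR adjusted p = 0.00785), and the sensor of uncharged tRNA, EIF2AK4, had 8.79, 9.26 and 9.38 FPKM in siPOLR1F, against 9.02, 9.22 and 9.93 FPKM in NC, with overlap.

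In the lists of genes around the synthetases, on the path from tRNA transcript to ribosome, the share called was 12.5% for tRNA processing and export, 10.0% for elongation factors, 13.3% for mitochondrial partners, 16.7% for editing and selenocysteine and 15.4% for mitochondrially encoded messages. All 5 shares lay at or below the 17.2% of all genes tested. Of 24 genes of tRNA processing and export, POP1 (log2 fold change 0.47) and RPP25 (0.38), which are protein subunits of ribonuclease P and its relative RNase MRP, rose, and FAM98B (-0.35), a part of the tRNA ligase complex, fell. Of 10 elongation factor genes EEF1D rose (0.19), a subunit of the exchange factor for eEF1A, and 9 did not pass. Of 15 genes that act beside the synthetases in mitochondria, PUS1, a tRNA pseudouridine synthase, rose (0.46), and GATC, a subunit of the amidotransferase that completes mitochondrial glutaminyl-tRNA, fell (-0.37). GATC had 6.83, 8.59 and 8.90 FPKM in siPOLR1F, against 10.5, 10.3 and 10.7 FPKM in NC, so every siPOLR1F library was lower. Of 6 genes of editing and of the selenocysteine branch DTD2, which removes mischarged D-amino acids and alanine from tRNA, fell (-0.32), and all 6 had negative log2 fold changes (median -0.15). Of the 13 mitochondrially encoded messages MT-ND4 (-0.19) and MT-ATP8 (-0.17) fell, 11 did not pass, and all 13 log2 fold changes were negative (median -0.14).

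Most of these calls were lost when 1 of several libraries was left out. FAM98B did not pass without siPOLR1F replicate 3 (edgeR adjusted p = 0.0529). POP1, RPP25, EEF1D and PUS1 did not pass without any 1 library other than NC replicate 2 (adjusted p up to 0.127, 0.140, 0.116 and 0.102), GATC without any other than siPOLR1F replicate 3 (up to 0.0818) and DTD2 without any of the 6 (0.0578 to 0.144). MT-ND4 failed without siPOLR1F replicate 2 (0.0773) or 3 (0.0824) and NC replicate 1 (0.0555) or 3 (0.0623), and MT-ATP8 without siPOLR1F replicate 2 (0.145) or 3 (0.124) and NC replicate 1 (0.0940) or 2 (0.106). With 1 library left out, the log2 fold change was -0.41 to -0.29 for FAM98B, 0.36 to 0.64 for POP1, 0.27 to 0.46 for RPP25, 0.15 to 0.22 for EEF1D, 0.37 to 0.62 for PUS1, -0.44 to -0.26 for GATC, -0.36 to -0.26 for DTD2, -0.23 to -0.17 for MT-ND4 and -0.20 to -0.14 for MT-ATP8. Over all alternatives the adjusted p was 0.000216 to 0.0529 for FAM98B, 0.0012 to 0.159 for POP1, 0.0139 to 0.150 for RPP25, 0.00863 to 0.116 for EEF1D, 0.00117 to 0.129 for PUS1, 0.00269 to 0.144 for GATC, 0.0196 to 0.144 for DTD2, 0.0102 to 0.149 for MT-ND4 and 0.0259 to 0.179 for MT-ATP8.

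**Figure D5:**
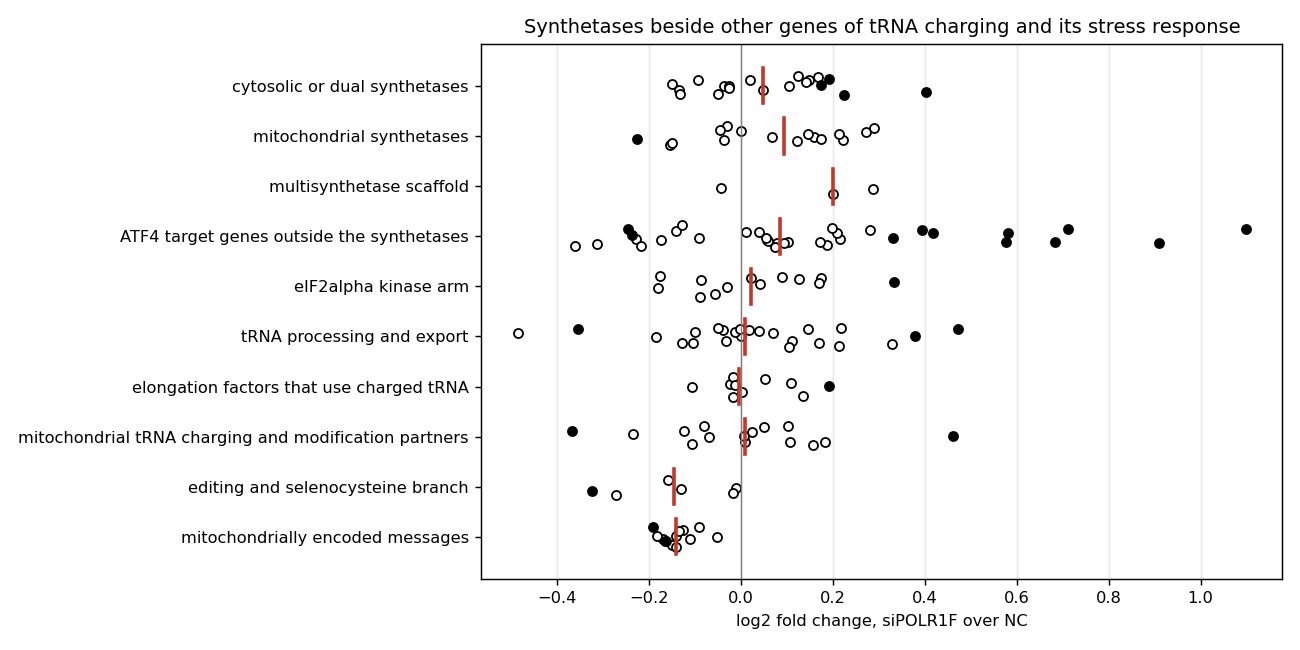
Log2 fold change, siPOLR1F over NC, of each tested gene (points; filled where the adjusted p was below 0.05) in the 2 synthetase groups and 8 lists of related genes, with a red bar at each median. The synthetases lie between -0.23 and 0.40, while ATF4 target genes reach 1.10, and all 13 mitochondrially encoded messages lie below 0.

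Heptamers from an earlier scan of these same fold changes were looked up in the longest coding transcript of each member. TCGGAGA was present in SARS1, CARS2, EARS2 and SARS2 (11.4% of members, beside 11.3% of 11274 tested genes), and CCGACTT in IARS1, YARS1 and LARS2 (8.57% beside 7.72%).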

How the data were processed

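The authors used fastp, HISAT2 and StringTie on GRCh38 (hg38), per the submitters' processing notes. Tool versions, the annotation and the strand setting were not given in the sources used here. Per the labels, poly(A) RNA was sequenced in pairs. The authors deposited 1 table with whole-number counts and FPKM values for each library, used as deposited. Groups came from the labels.

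Counts were tested with edgeR 4.0.16 (R 4.3.3; TMM factors, glmQLFit, glmQLFTest, two-sided) on the 13564 genes that reached 0.5 FPKM on average over the 6 libraries, which held 99.4% of the counts. The biological coefficient of variation was 0.137, and p-values were adjusted by Benjamini-Hochberg over all genes tested with a threshold of 0.05. Ratios were compared by exact permutation of libraries (numpy 2.4.6, scipy 1.17.1, pandas 2.3.3). Pairwise chi-square per degree of freedom between libraries was 16.7 to 83.8, so no library repeated another.

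Members, lists and promoter motifs were chosen with earlier results of these data known. Named were the called members, filled up to 8 by adjusted p, the 3 most and 3 least abundant members per compartment, up to 4 called genes per list (or the 2 most abundant), POLR1F and neighbours of members. ATF4, ASNS, EIF2AK4, AIMP1, DDIT3 and the further members given with values were added for their role after values were seen. STC2 and VLDLR were added after values were seen, as the called genes of their list that fell. Alternatives were DESeq2 1.42.0, its size factors in edgeR, library size alone, no filter, a mean FPKM of at least 5, limma 3.58.1 on log2(FPKM + 1) and log2(FPKM + 0.1), a replicate block and leaving out each library. The test was also run on simulated counts with known fold changes, and the outcome is not reported here. For well-counted genes the simulated counts were set to vary less between libraries than the real ones, so that run does not show how the test performs here. A planned comparison of protein sequences was not run.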

Additional observations from a re-analysis of the deposited data

How the results depend on the processing

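POLR1F (log2 fold change -2.50 to -1.80; no value at a mean FPKM of at least 5) and KARS1 (0.38 to 0.43) passed in every alternative that gave a value, and neither of them nor any other called gene followed through the alternatives changed direction, while the mitochondrial median changed sign at the stricter filter. The cytosolic count of 4 higher genes was 1 with no expression filter and 1 to 3 when 1 library was left out, and at a mean FPKM of at least 5 there was 1 lower gene (QARS1). The mitochondrial count of 0 higher genes was 2 with DESeq2 (AARS2 and TARS2) and 1 at a mean FPKM of at least 5 (AARS2), and the count of 1 lower gene was 0 with no filter and 0 to 1 with 1 library left out. The mitochondrial median log2 fold change of 0.09 was -0.047 at a mean FPKM of at least 5, where fewer genes are tested, and 0.0302 to 0.114 with 1 library left out. The lists held 14 higher and 7 lower genes; with no filter these were 7 and 1, DESeq2 gave 12 lower, and with 1 library left out they were 7 to 14 and 2 to 9. Over all genes, 1391 higher and 942 lower became 663 and 313 with no filter, and 730 to 1326 and 423 to 841 with 1 library left out, where fewer samples enter the fit. The main test did not pair libraries by replicate number. Deviations of same-numbered libraries correlated at 0.293, 0.0157 and 0.274, and those of other pairs at -0.277 to 0.00614. Each library correlated best with its own number, so an effect shared by replicate number remains possible. With a replicate block, 1517 genes were higher and 1125 lower, 3 cytosolic synthetases were higher (SARS1 had an adjusted p of 0.0537), and the lists held 13 lower genes. Where not stated, the cause was not tested. With 3 libraries per group, the SE of the members' log2 fold changes was 0.05 to 0.16.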
